A study of Mus musculus with 14 samples.

Results

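The 10 predicted genes described here, *Gm2897*, *Gm3095*, *Gm3373*, *Gm3248*, *Gm3453*, *Gm3411*, *Gm8050*, *Gm6356*, *Gm3696* and *Gm3755*, belong to a block of duplicated genes near the start of mouse chromosome 14. They are 10 of the 33939 genes in the table and 10 of the 118 listed genes that lie from 3 to 8 Mb of that chromosome (GRCm38, the same coordinates as mm10). They were chosen by measured values of these libraries. Which values is not stated, and they are taken here to have been selected on their differences between cKO and Ctrl mice. Every genotype difference of the members below is therefore a description, and nothing is read from calls made on them. In cKO CL libraries 9 of them were higher than in Ctrl CL libraries and *Gm3248* was lower. Their summed level, and that of the near-identical copies around them, is given after the single members.

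RNA was sequenced from CD11b+ cells, mainly microglia and other myeloid cells, that were separated with magnetic beads from the brain 3 days after a controlled cortical impact, a model of traumatic brain injury (TBI). Ctrl mice were Cx3cr1-CreER+/- and cKO mice carried in addition floxed alleles of the gene to be deleted, all were C57BL/6 mice of 8-12 weeks, and all received tamoxifen, which starts the recombination. The injured ipsilateral (IL) and the contralateral (CL) hemisphere were taken, with 4 libraries of each hemisphere from Ctrl mice and 3 of each from cKO mice, in all 14 libraries from 8 mice, 6 of which gave both hemispheres. The Cre enzyme is driven by the Cx3cr1 promoter, which is active in microglia and in other myeloid cells. Every cKO mouse carried the floxed alleles and no Ctrl mouse did, so the deletion and descent from the floxed line cannot be told apart. CPM is the number of reads of a gene per 1000000 reads of its library. The spacing of the values gave 12.2 to 41.6 M reads per library with a median of 34.2 M, where M stands for 1000000, and Ctrl IL of mouse 3546 was the shallowest.

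Gene families of this kind arise when a stretch of chromosome is copied in tandem, after which the copies diverge slowly and a short sequencing read may match several of them. The block on proximal chromosome 14 is known for the α-takusan family, whose small proteins have been studied in neurons as partners of the postsynaptic scaffold encoded by *Dlg4*. The members' names in the table are those of gene predictions. Each is annotated as protein coding, with 4 to 7 exons and 450 to 789 coding bases.

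The members lie along most of the block. *Gm2897* is at chr14:3049285-3076840 and *Gm3095* at chr14:3963547-3970207, both on the plus strand. The other 8 are on the minus strand. *Gm3373* is at chr14:5718336-5741577, *Gm3248* at chr14:5939225-5961745, *Gm3453* at chr14:5970744-5979137 and *Gm3411* at chr14:6259747-6287250. *Gm8050* is at chr14:6712183-6720251, *Gm6356* at chr14:6965449-6973818, *Gm3696* at chr14:7083208-7100621 and *Gm3755* at chr14:7440924-7450917. Among the 73 listed genes of the interval that match a member over at least 300 bases, called the family here, they hold ranks 1, 11, 43, 45, 46, 52, 59, 63, 65 and 71 from the chromosome start. The other 63 family genes are copies that were not chosen. A further 30 annotated copies in the interval are not listed with values, so they are in none of the sums below. Another annotated gene overlaps the span of *Gm2897*, *Gm3095*, *Gm3248*, *Gm3373*, *Gm3755* and *Gm8050*. *Gm3002* overlaps *Gm3095*, and *Gm3383* overlaps *Gm3373*, on the same strand, where the strand could not separate reads. For the other overlaps, the library kit is not stated to keep the strand. Reads from such overlaps cannot be told apart, and these 6 levels are uncertain for that reason also.

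How alike the copies are can be seen in a 90-base coding stretch, aligned across the 4 members of highest cKO level, *Gm3248*, and *Gm3488*, the copy outside the member list with the highest level. Capitals mark bases that differ from the most common base of the 6 sequences. The sequences are the longest GENCODE transcripts (GRCm38), shown 5′ to 3′.
Gm3411: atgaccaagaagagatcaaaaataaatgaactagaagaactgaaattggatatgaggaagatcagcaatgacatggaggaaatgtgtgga
Gm3696: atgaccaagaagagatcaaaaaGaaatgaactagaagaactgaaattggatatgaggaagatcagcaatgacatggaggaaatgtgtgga
Gm2897: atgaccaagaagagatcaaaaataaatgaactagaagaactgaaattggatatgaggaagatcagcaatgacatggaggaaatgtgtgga
Gm6356: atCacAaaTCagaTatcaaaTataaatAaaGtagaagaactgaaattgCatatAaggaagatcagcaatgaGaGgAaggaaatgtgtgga
Gm3248: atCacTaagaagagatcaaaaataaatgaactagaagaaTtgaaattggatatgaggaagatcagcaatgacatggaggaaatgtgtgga
Gm3488: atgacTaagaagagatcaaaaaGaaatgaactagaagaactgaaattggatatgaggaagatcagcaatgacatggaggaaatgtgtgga

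The stretch was the ungapped coding window with the most distinct sequences and, among those, the most differing columns. Even so, only 15 of its 90 columns differ. *Gm3411* and *Gm2897* are identical there, and *Gm3696* differs from them at 1 base, *Gm3248* at 3 and *Gm6356* at 13. Over whole transcripts, the 45 pairs of members were 91.5% to 99.4% identical with a median of 94.3%, over aligned lengths of 352 to 1816 bases. *Gm3411* and *Gm3696* were the closest pair, at 99.4% over 1623 bases. *Dlg5*, a scaffold gene that was searched in the same way, gave 0 matches to a member.

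A read can be placed on 1 copy only where the copies differ. Of all 100-base stretches in a member's longest transcript, the share found in no other annotated gene was 83.2% for *Gm3248* and 79.3% for *Gm6356*. It was 36.5% for *Gm3453*, 30.2% for *Gm8050*, 29.2% for *Gm3411* and 26.3% for *Gm3696*. It fell to 23.8% for *Gm3755*, 22.4% for *Gm2897*, 17.0% for *Gm3095* and 0.70% for *Gm3373*. The other 63 family genes had a median of 26.5%, and 11 of them had no such stretch. So *Gm3248* and *Gm6356* were the members whose levels rest most on sequence of their own, and *Gm3373* had almost none.

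**Figure D1:**
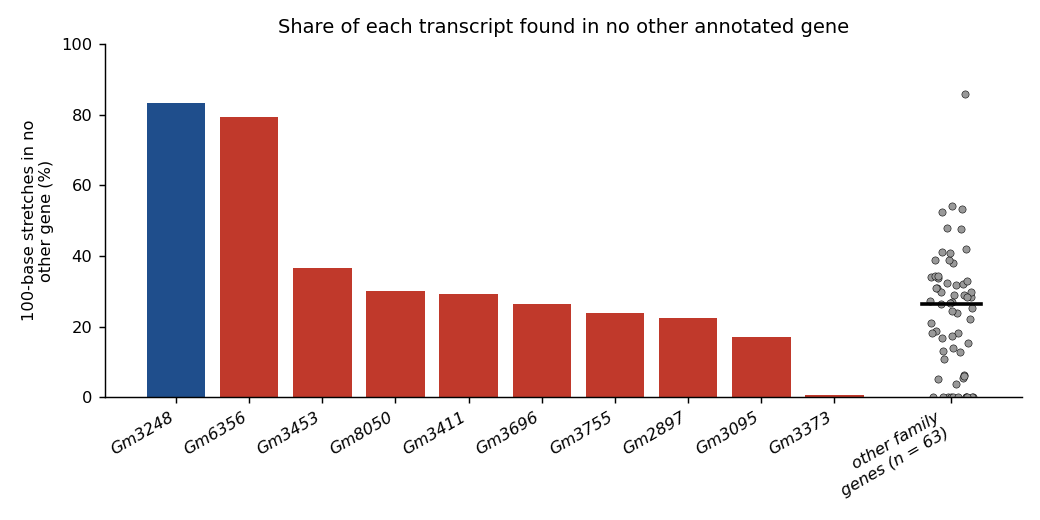
Share of 100-base stretches of each longest transcript that occur in no other annotated gene, in percent, for the 10 members (bars, *Gm3248* in blue) and for the other 63 family genes (grey points, line at the median of 26.5%). *Gm3248* and *Gm6356* stand at 83.2% and 79.3% and *Gm3373* at 0.70%.

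Member values were often not whole numbers of reads. A count of whole reads gives CPM in steps of 1 read. Of the 106 member values above 0 and under 100 reads, 67 lay more than 0.03 of a read from a whole number (63.2%, 95% Wilson interval 53.7% to 71.8%), as did 66.3% of such values of the other family genes. Across all genes of a library the share was 16.8% to 28.5%. Of the 140 member values, 18 were exactly 0 and 33 were above 0 but under 0.5 read, down to 1.02e-42 CPM, which no number of whole reads can give. Values under 0.5 read are written as 0 below. A value of 0 means that the gene is listed at 0, and not that its RNA was absent.

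*Gm6356* separated the genotypes most fully. It was at 0 in all 8 Ctrl libraries, at 14.5, 15.9 and 13.3 CPM in cKO CL of mice 788, 791 and 3592, and at 2.31, 4.91 and 2.30 CPM in cKO IL of mice 784, 791 and 3592. Set against 3 reads per Ctrl library, the limit that a count of 0 allows, the cKO mean was at least 133-fold higher in CL and at least 25.2-fold higher in IL. Counting error is the only error that this limit covers.

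*Gm3411* had the same order of levels. In Ctrl CL of mice 3541, 3545, 3546 and 3551 it was at 0, 0.0844, 0.383 and 0 CPM, and in Ctrl IL of the same mice at 0, 0, 0.178 and 0. In cKO CL it was at 15.97, 16.3 and 11.4 CPM, and in cKO IL at 0.936, 2.78 and 3.03. The CL mean was 124-fold higher in cKO. That fold rests on Ctrl CL of mouse 3546, which held 10.8 estimated reads, while the other 3 Ctrl CL libraries held 3.36 together. Mouse 3546 had the highest Ctrl value in both hemispheres, and no Ctrl library reached the lowest cKO library of its hemisphere. No IL fold is given, since the Ctrl IL libraries held 2.18 estimated reads together.

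*Gm2897* was present at a low level in Ctrl mice. Its CPM in Ctrl CL were 0.195, 0.245, 0.932 and 0.457, and in Ctrl IL 0.173, 0.0321, 0 and 0.0393. In cKO CL they were 6.01, 3.91 and 3.16, and in cKO IL 0.214, 0.584 and 0.399. The mean was 9.54-fold higher in cKO CL than in Ctrl CL, or 14.6-fold without Ctrl CL of mouse 3546. It was 6.54-fold higher in cKO IL than in Ctrl IL, where Ctrl held 8.53 estimated reads in all and 2.47 without IL of mouse 3541. The groups did not overlap in either hemisphere.

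*Gm3696*, the copy closest to *Gm3411*, was at 0 in 7 of 8 Ctrl libraries and at 0.170 CPM in Ctrl CL of mouse 3551. It was at 4.29, 5.35 and 1.58 CPM in cKO CL and at 0.832, 1.24 and 0.554 in cKO IL. The cKO IL mean was at least 6.95-fold higher than 3 reads per Ctrl IL library.

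*Gm3095* and *Gm3755* stood near 2 CPM only in cKO CL. *Gm3095* was at 0.121 to 0.454 CPM in Ctrl CL and 2.38, 3.05 and 1.40 in cKO CL, a 6.94-fold higher mean. In IL its groups overlapped, at 0 to 0.228 CPM in Ctrl and 0.0196 to 0.563 in cKO. *Gm3755* was at 0 in 6 of 8 Ctrl libraries, with 0.108 CPM in CL and 0.0855 in IL of mouse 3545. It was at 1.91, 2.06 and 2.18 CPM in cKO CL and 0.342, 0.721 and 0.763 in cKO IL, with no overlap in either hemisphere.

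Of the 9 members that were higher in cKO CL, *Gm3453*, *Gm8050* and *Gm3373* had the lowest levels there, and the groups overlapped in IL for each. *Gm3453* was at 0 to 0.150 CPM in Ctrl CL and at 1.30, 1.12 and 0.841 in cKO CL, and reached 0.325 CPM in cKO IL. *Gm8050* was at 0 in all Ctrl libraries, at 0.799, 0.854 and 0.557 CPM in cKO CL, and at 0.136, 0.159 and 0 in cKO IL. *Gm3373* was at 0 in Ctrl CL and at 0.760, 0.478 and 0.724 CPM in cKO CL. In IL it spanned 0 to 0.140 CPM in Ctrl and 0.0897 to 0.353 in cKO.

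*Gm3248* ran the other way. It was at 3.34, 6.48, 13.1 and 7.93 CPM in Ctrl CL and at 1.33, 1.32, 4.08 and 1.19 in Ctrl IL. In cKO it was at 0.203, 0 and 2.71 CPM in CL and at 0.405, 0 and 0.413 in IL. The Ctrl mean was 7.94-fold higher in CL, or 75.9-fold without cKO CL of mouse 3592, and 7.27-fold higher in IL, or 4.71-fold without Ctrl IL of mouse 3546, and the genotypes did not overlap in either hemisphere. Mouse 791 had 0 in both hemispheres, while CL of mouse 3592 was nearest to the lowest Ctrl CL library, that of mouse 3541.

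**Figure D2:**
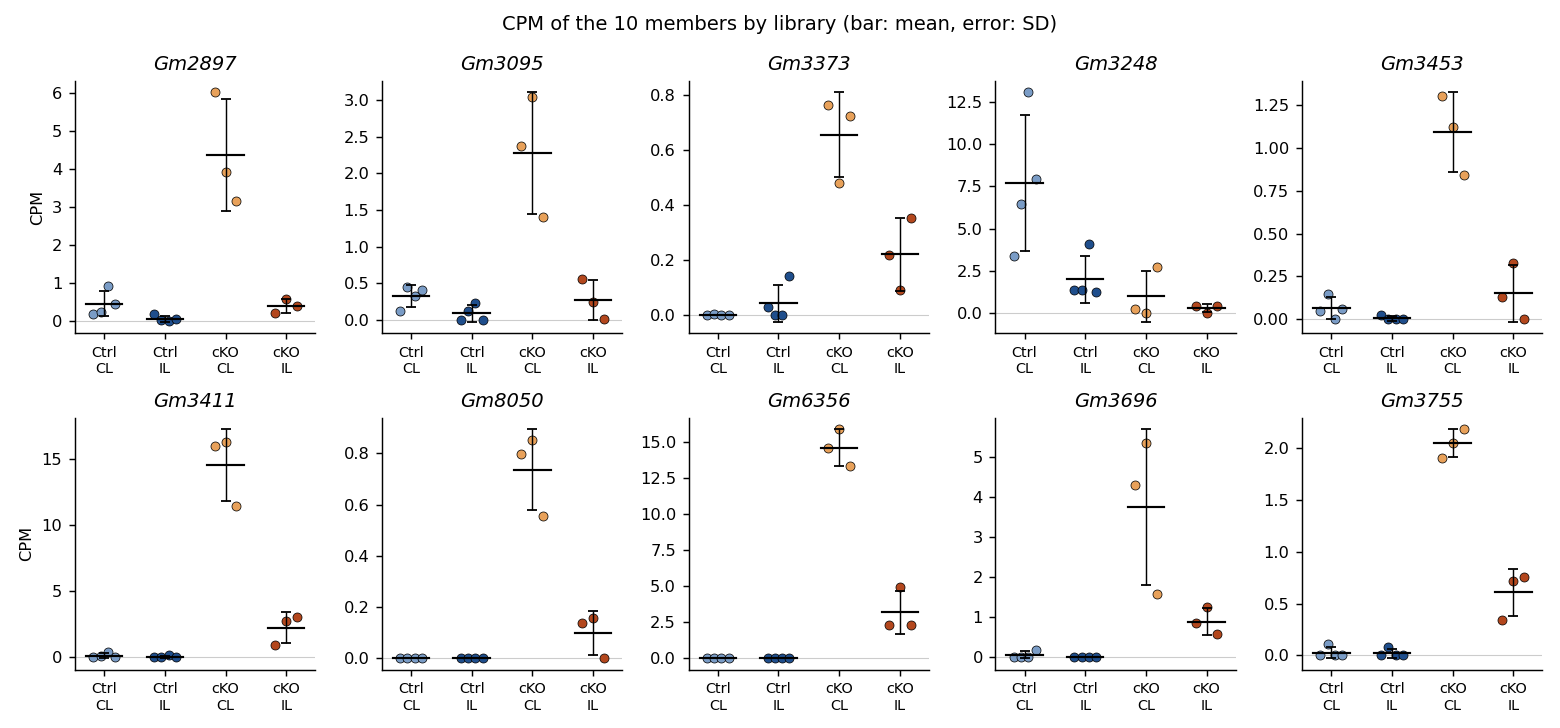
CPM of each member in the 14 libraries by group, with the mean (horizontal line) and SD (error bar) of 4 Ctrl or 3 cKO libraries, each panel with a linear axis of its own. In cKO CL, 9 members lie above every Ctrl library, and *Gm3248* is highest in Ctrl CL.

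Per kilobase of transcript, a scale that corrects for length only, *Gm6356* at 8.30 and *Gm3411* at 7.31 CPM per kb led in cKO CL. Their libraries overlapped before the division by length. How reads with several matches were assigned is not known, so the order of near-identical copies is uncertain. *Gm2897* at 2.20, *Gm3696* at 2.06, *Gm3095* at 1.45 and *Gm3755* at 1.40 formed a middle group. *Gm3453* at 0.620, *Gm3248* at 0.472, *Gm8050* at 0.462 and *Gm3373* at 0.335 were lowest. In Ctrl CL the order was another one. *Gm3248* led at 3.75 CPM per kb, followed by *Gm2897* at 0.231 and *Gm3095* at 0.209, and no other member passed 0.0587.

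The cKO CL libraries were not alike. Of the 9 members that were higher in cKO, 7 had their lowest cKO CL value in mouse 3592, and *Gm3248* had its highest there. The 63 unchosen copies summed to 81.5 CPM in that library against 42.0 and 38.4 in mice 788 and 791.

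On the log2(CPM + 1) scale, where low values shrink every difference, the fitted cKO minus Ctrl differences in CL were 3.95 ± 0.18 for *Gm6356*, 3.79 ± 0.22 for *Gm3411*, 2.08 ± 0.28 for *Gm3696* and 1.87 ± 0.24 for *Gm2897* (SE, 4 Ctrl and 3 cKO libraries). They were 1.56 ± 0.15 for *Gm3755*, 1.27 ± 0.21 for *Gm3095*, 0.96 ± 0.15 for *Gm3453*, 0.79 ± 0.14 for *Gm8050* and 0.72 ± 0.14 for *Gm3373*, and -2.29 ± 0.45 for *Gm3248*. In IL 5 members passed the filter on low values, and their differences were 2.01 ± 0.23 for *Gm6356*, 1.58 ± 0.25 for *Gm3411*, 0.90 ± 0.15 for *Gm3696*, 0.64 ± 0.13 for *Gm3755* and -1.14 ± 0.27 for *Gm3248*. A gene was called when its limma p-value, adjusted by Benjamini-Hochberg over all genes tested, was at most 0.05 and its fold change at least 1.2. By that rule 10 of 10 members were called in CL, where 0.869% of 16569 genes were, and 3 of 5 tested in IL (*Gm6356*, *Gm3411* and *Gm3696*), where 0.676% of 16872 were. The groups did not overlap for 10 members in CL and for 6 in IL, against 10.01% and 10.3% of all genes tested. In CL *Gm3248* lost its call with no further scaling, with upper-quartile or median-ratio scaling, with either smaller pseudocount and with no filter on low values, which also ended the call of *Gm3095*. With 1 library left out at a time, 5 to 9 members were called in CL. In those fits *Gm3248* kept its call only without CL of Ctrl mouse 3541 or of cKO mouse 3592. In IL, with all 14 libraries in 1 fit and the mouse as a random effect, *Gm3696* lost its call and *Gm3755* gained one. Also in IL, *Gm3696* lost its call with upper-quartile scaling and *Gm3411* with no filter on low values. Each of these 2 members lost its IL call when any of 5 of the 7 libraries was left out, and *Gm6356* kept its call each time. Since these contrasts are taken to have chosen the members, nothing is read from those counts.

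On the log2(CPM + 1) scale, where low values shrink every difference, the genotype differences were smaller in IL than in CL for each member. The part of that scale in this was not tested. As folds of the means, *Gm3248* differed 7.94-fold in CL and 7.27-fold in IL, *Gm2897* 9.54- and 6.54-fold, and *Gm3095* 6.94- and 3.11-fold. The other members had too few Ctrl reads for such a fold in both hemispheres. The IL difference minus the CL difference was -2.14 ± 0.33 for *Gm3411*, -1.85 ± 0.28 for *Gm6356*, -1.45 ± 0.27 for *Gm2897* and -1.13 ± 0.34 for *Gm3696*, in log2(CPM + 1) units (SE from a fit of all 14 libraries). It was -1.02 to -0.47 for *Gm3095*, *Gm3755*, *Gm3453*, *Gm8050* and *Gm3373*, and 1.08 ± 0.59 for *Gm3248*, whose difference was nearer 0 in IL.

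The summed level of the family gave another picture than single members. The 10 members summed to 3.70, 7.52, 14.7 and 9.03 CPM in Ctrl CL and to 48.2, 48.9 and 37.9 in cKO CL, so that the genotypes did not overlap. In IL they summed to 1.57, 1.57, 4.48 and 1.37 CPM in Ctrl and 6.08, 11.1 and 7.83 in cKO. Over all 73 family genes the sums were 48.3, 79.4, 159 and 90.3 CPM in Ctrl CL and 90.1, 87.4 and 119 in cKO CL. In IL the family summed to 15.3, 17.6, 45.5 and 23.4 CPM in Ctrl and to 20.6, 22.6 and 23.5 in cKO. The cKO sums thus lay inside the Ctrl range in both hemispheres.

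The mean member sum of cKO was 5.15 times that of Ctrl in CL and 3.70 times in IL, and the mean family sum 1.05 and 0.873 times. As differences between group means of the log2 sums after scaling of the libraries, the values were 2.51 in CL and 2.04 in IL for the members, and 0.18 and -0.05 for the family. The same log2 differences for the 63 unchosen copies were -0.63 in CL and -0.60 in IL, with overlap between the genotypes in each. What differed was the division of the family's CPM. The 9 higher members held 0.754% to 1.31% of it in Ctrl CL and 29.5% to 56.0% in cKO CL, and 0.764% to 1.51% in Ctrl IL and 27.5% to 49.0% in cKO IL. *Gm3248* held 6.92% to 8.78% in Ctrl CL and 0 to 2.27% in cKO CL. These shares include the values taken to have chosen the members.

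**Figure D3:**
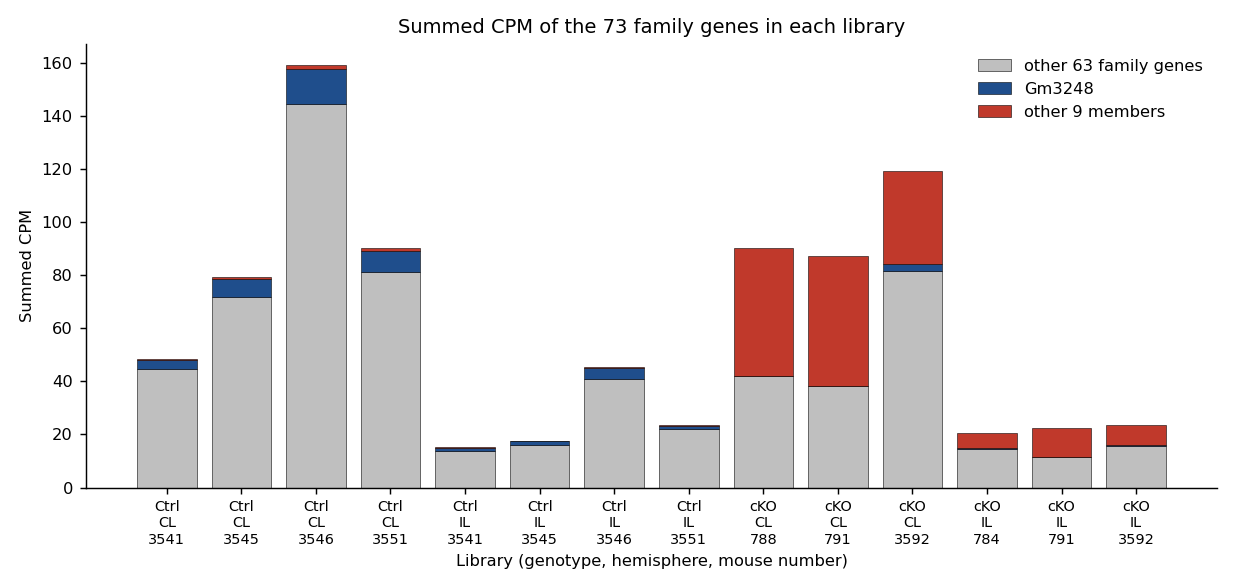
Summed CPM of the 73 family genes in each library, divided into the 63 unchosen copies (grey), *Gm3248* (blue) and the other 9 members (red). The cKO CL sums of 87.4 to 119 CPM lie within the Ctrl CL range of 48.3 to 159, while the red part is at most 1.64 CPM in Ctrl and 35.2 to 48.9 in cKO CL.

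The unchosen copies differed between genotypes in both directions. On the log2(CPM + 1) scale their cKO minus Ctrl differences ran from -2.68 to 1.26 in CL with a median of 0.01, and from -1.65 to 0.96 in IL with a median of -0.01. Without overlap between the genotypes, 11 were higher and 4 lower in cKO CL, and 5 were higher and 8 lower in cKO IL. Over all genes tested the genotypes did not overlap for 10.01% in CL and 10.3% in IL. Of the 26 that passed the filter in CL and the 18 that passed in IL, none was called by limma. Copies that differ between the genotypes would have been taken into the member list if calls made the choice, so nothing is read from that absence. With all 14 libraries in 1 fit 29 copies were tested in CL, where 3 were called higher and 2 lower, and 259 of 18458 genes were called in all. With the mouse as a random effect in that fit 3 were called higher and 3 lower, where 280 genes were called. Without CL of mouse 3592, in the fit of the CL libraries alone, 1 was called higher and 4 lower, where 155 of 17768 genes were called. Without adjustment 12 of the 26 and 7 of the 18 had a p under 0.05, against 9.99% and 8.93% of all genes tested. *Gm3488* was at 8.76, 18.4, 27.9 and 18.4 CPM in Ctrl CL and at 0.610, 0.135 and 10.8 in cKO CL. *Gm3252* was at 2.35, 3.28, 10.1 and 4.15 CPM in Ctrl CL and at 14.03, 10.9 and 10.8 in cKO CL. In cKO CL mouse 3592 again stood apart from the other mice for *Gm3488*, whose groups overlapped, and *Gm3252* groups did not overlap.

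Outside the family, 4 of the 15 tested genes of the interval were called higher in cKO CL, against 0.869% of 16569 genes called in either direction, and 0 of 14 tested were called in cKO IL, where 4 of the 14 had an unadjusted limma p under 0.05. Genes that are low in Ctrl CL can pass the filter through cKO CL alone, where they are high, so nothing is read from the count in CL. The 4 called in CL were *Dnase1l3*, which encodes a secreted DNase, *Gm10251*, *Gm10339* and *1700110I01Rik*, named here after their values were seen. The CL means of *Dnase1l3* were 0.252 ± 0.110 CPM in 4 Ctrl and 4.31 ± 0.638 CPM in 3 cKO libraries (SD), and those of *Gm10251* were 2.20 ± 0.401 and 7.79 ± 0.618.

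**Figure D4:**
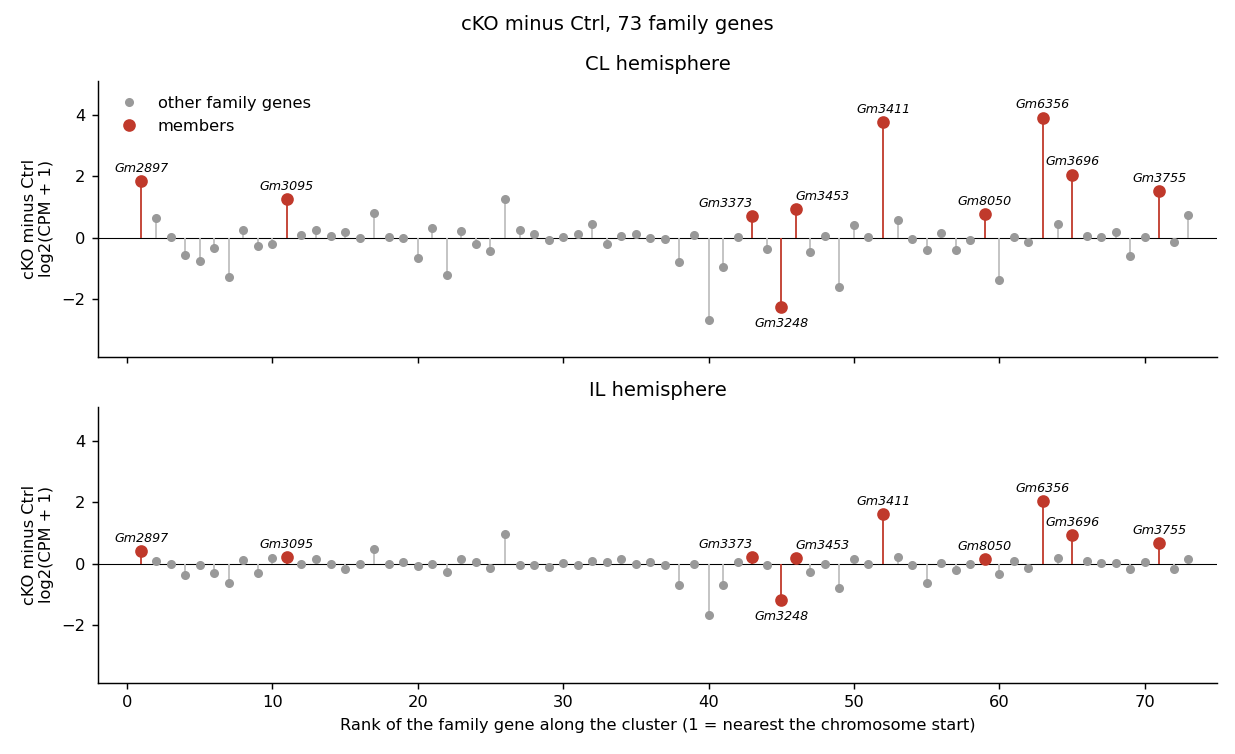
cKO minus Ctrl difference in mean log2(CPM + 1) of the 73 family genes by rank along the cluster, in CL (4 Ctrl and 3 cKO libraries) and IL (the same numbers), members in red. In CL 9 members lie above 0 and *Gm3248* below, and the unchosen copies lie between -2.68 and 1.26.

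The start regions could be read from RefSeq (GRCm38.p6) for 7 members, all but *Gm3453*, *Gm3755* and *Gm6356*. The most alike were those of *Gm2897*, higher in cKO, and *Gm3248*, lower in cKO, at 96.6% over 266 aligned bases of the 300-base promoters. They are shown because 2 members with opposite genotype differences share them. The stretch is 156 bases long. Counted from the RefSeq starts, it lies 250 to 95 bases before that of *Gm2897*, at chr14:3049035-3049190 on the plus strand, and 216 to 61 bases before the one used of 2 starts of *Gm3248*, at chr14:5961748-5961903 on the minus strand. RefSeq starts need not be the ends of the GENCODE spans given above, and differ from them at *Gm3248* and *Gm3095* among others. Capitals mark the 6 positions that differ.
Gm2897: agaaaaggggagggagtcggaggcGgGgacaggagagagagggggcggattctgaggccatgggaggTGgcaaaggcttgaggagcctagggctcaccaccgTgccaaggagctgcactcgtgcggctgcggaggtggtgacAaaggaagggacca
Gm3248: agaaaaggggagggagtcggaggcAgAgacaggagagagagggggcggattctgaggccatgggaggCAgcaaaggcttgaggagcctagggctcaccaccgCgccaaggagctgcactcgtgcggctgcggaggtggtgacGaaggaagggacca

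On both strands of the 300-base promoters, TATAAA was in 0 of 10 entries of the 7 members (some have several starts) and in 13.6% of all 32851 promoters. GAGGAAG, the core of sites bound by the myeloid factor PU.1, was in 2 of the 10, at *Gm3373* and *Gm3696*, and also in 13.6% of all promoters. A match is a run of letters and not a shown binding site.

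The comparison of hemispheres uses the same CL libraries as the genotype contrast taken to have chosen the members. Member differences, and the calls made on them, are therefore given as a description. In bulk RNA, fewer cells of a type and less RNA per cell cannot be told apart. In cKO mice 8 of the 10 members met the rule for a call and were lower in IL than in CL, where 22.7% of 16756 genes were called and 10.2% were called lower. With 10 reads required in every library only 4 of the 10 could be tested. The mean of *Gm3411* was 6.46-fold lower in IL (log2 difference -2.26 ± 0.30, SE), that of *Gm6356* 4.60-fold lower (-1.89 ± 0.26) and that of *Gm2897* 10.9-fold lower (-1.87 ± 0.23), each with 3 of 3 IL libraries under every CL library. The same held for *Gm3095*, *Gm3755*, *Gm3453* and *Gm8050*, with log2 differences of -1.31, -0.90, -0.83 and -0.64. In all, 9 members had no overlap between the hemispheres, against 42.4% of all genes tested. *Gm3696* was at -1.21 ± 0.34, and leaving out any library but CL of mouse 3592 ended its call. *Gm8050* lost its call without IL of mouse 3592 and with the mouse as a block. *Gm3373* at -0.43 ± 0.14 and *Gm3248* at -0.38 ± 0.44 were the 2 members not called. Nothing is read from these counts.

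In Ctrl mice only *Gm3248* passed the filter. It was lower in IL by a log2 difference of -1.46 ± 0.34 (SE), where 6.72% of 16359 genes were called and 2.96% were called lower, and it was lower in IL than in CL of the same mouse in 4 of 4 mice. The IL library of mouse 3546, at 4.08 CPM, was above the CL library of mouse 3541, at 3.34. It met the rule for a call, and did not when any of 6 of the 8 libraries was left out. Its Ctrl CL values are also taken to have entered the choice of members, so nothing is read from this call.

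The unchosen copies were compared between the hemispheres in the same way. Over all 63, the IL minus CL difference was under 0 for 52 and above 0 for 10 in Ctrl mice, and under 0 for 54 and above 0 for 9 in cKO mice. Its median was -0.08 in Ctrl and -0.23 in cKO, and 29 of the 63 passed the filter on low values with all 14 libraries in 1 fit. A copy with reads in CL only can pass the filter through CL alone, so nothing is read from the direction of those that passed. In Ctrl mice limma called 8 of the 23 that passed lower and 0 higher. With 10 reads required in every library 7 of 11 were called lower, where 1118 of 13833 genes were called, and with no filter 3 of 58, where 597 of 31198 were. With the mouse as a block 16 of the 23 were called lower, while the calls over all 16359 genes went from 1100 to 3305. Leaving out 1 library gave 1 (CL of mouse 3545), 2 (IL of mouse 3541 or 3551), 3 (IL of mouse 3545), 4 (CL of mouse 3546 or 3551), 11 (CL of mouse 3541) or 13 (IL of mouse 3546), while 498 to 1447 of all genes were called. In cKO mice 6 of the 19 that passed were called lower and 0 higher. With 10 reads in every library 5 of 6 were called lower, where 3881 of 14348 genes were called, and with no filter 7 of 62, where 2830 of 32446 were. With the block 9 of the 19 were called lower while the calls over all 16756 genes went from 3811 to 2378, although only 2 of the cKO mice gave both hemispheres.

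*Gm3488* was lower in IL of Ctrl mice by -1.45 ± 0.29 (adjusted p = 0.0175 by limma) and in cKO mice at -0.43 ± 0.83 (adjusted p = 0.748). *Gm3252* was lower in both, by -1.53 ± 0.37 in Ctrl (limma adjusted p = 0.038) and -1.85 ± 0.18 in cKO (limma adjusted p = 0.00195). Both copies were named for a group mean of at least 10 CPM, which each reached only in CL. That rule favours a lower level in IL, so nothing is read from these p-values.

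The family sum was higher in CL than in IL of the same mouse in 6 of 6 mice, by 3.15-, 4.51-, 3.49- and 3.85-fold in Ctrl mice 3541, 3545, 3546 and 3551, and by 3.87- and 5.07-fold in cKO mice 791 and 3592. The member sum was 2.36-, 4.80-, 3.29- and 6.58-fold higher in CL of those Ctrl mice and 4.43- and 4.84-fold higher in the cKO mice. The ranges of the genotypes overlapped for both sums.

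The genes of the interval outside the family gave other values. The 45 of them summed to 27.8 to 45.1 CPM in Ctrl CL and 42.6 to 71.7 in Ctrl IL, and to 52.5 to 55.2 in cKO CL and 42.6 to 57.3 in cKO IL. *Gm5456*, a processed pseudogene, was higher in IL of cKO mice by 1.08 ± 0.16 (limma adjusted p = 0.00433) and at 1.23 ± 0.33 in Ctrl mice (limma adjusted p = 0.0536). It was named for a group mean of at least 10 CPM, which it reached only in IL, so nothing is read from these p-values.

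**Figure D5:**
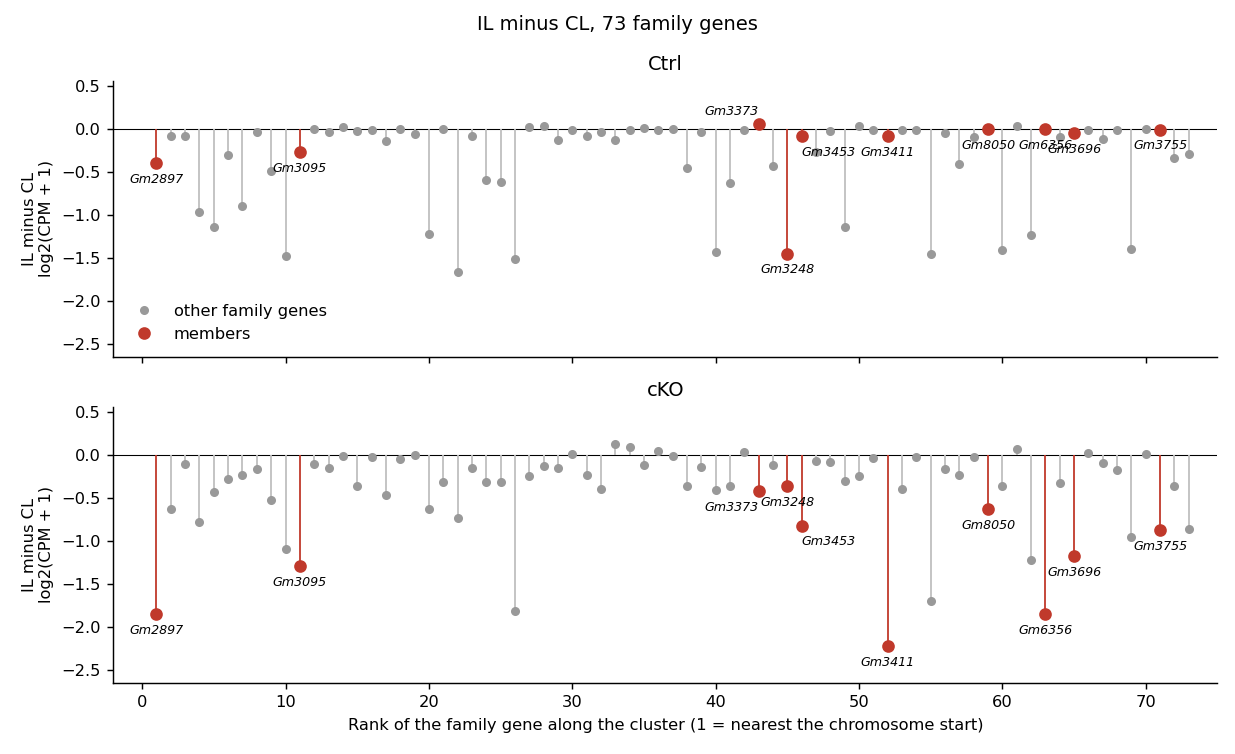
IL minus CL difference in mean log2(CPM + 1) of the 73 family genes by rank along the cluster, in Ctrl (4 mice) and in cKO (3 libraries a hemisphere), members in red. The unchosen copies lie between -1.66 and 0.04 in Ctrl and between -1.81 and 0.13 in cKO.

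Marker sums also differed between the hemispheres. The 10 microglia markers summed to 34729 to 39084 CPM in Ctrl CL and 20025 to 24126 in Ctrl IL, and to 34943 to 37665 in cKO CL and 21549 to 23567 in cKO IL. The 7 markers of infiltrating monocytes summed to 262 to 776 CPM in Ctrl CL and 727 to 1281 in Ctrl IL, and to 149 to 441 and 658 to 1051 in cKO. The 7 neutrophil markers were at 432 to 5580 CPM in Ctrl CL, 137 to 792 in Ctrl IL, 409 to 1173 in cKO CL and 176 to 275 in cKO IL. The 6 B cell markers summed to 550 to 833 CPM in Ctrl CL and 322 to 350 in Ctrl IL, and to 657 to 756 and 320 to 489 in cKO. By limma 5 of 10 microglia markers were lower and 3 of 7 monocyte markers higher in IL in each genotype, against 6.72% of all genes called in either direction in Ctrl and 22.7% in cKO. No marker of these lists was at 0 in all libraries, and the part of these cells in the member levels was not tested. Each of these 4 sums overlapped between genotypes within each hemisphere.

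Markers of other brain cells were low. The 10 neuron markers summed to 3.39 to 22.2 CPM across the libraries and overlapped between all 4 groups. The 10 oligodendrocyte markers summed to 178 to 317, the 7 astrocyte markers to 124 to 230, the 7 endothelial markers to 87.1 to 264 and the 7 T and NK cell markers to 4.17 to 18.5 CPM. The oligodendrocyte sum did not overlap between genotypes in CL, at 223 to 317 CPM in Ctrl and 178 to 218 in cKO. All 9 tested oligodendrocyte markers had a log2 difference under 0 in cKO CL, 1 was called lower, and 5 had an unadjusted p under 0.05. The T and NK cell markers summed to 8.46 to 18.5 CPM in Ctrl CL and 4.64 to 9.83 in cKO CL, with 4 of 4 tested markers under 0, none called and 3 with an unadjusted p under 0.05. Of the neutrophil markers 7 of 7 were under 0 in cKO CL, with a median log2 difference of -1.52, none called and 3 with an unadjusted p under 0.05. So were 6 of 7 endothelial markers with a median of -0.65 and 6 of 7 monocyte markers with a median of -0.61, of which none was called and 3 and 1 had an unadjusted p under 0.05. The part of these cells in the member differences between genotypes was not tested.

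The scaffold genes to which the α-takusan proteins are linked came from a list of 18 *Dlg* and postsynaptic genes. Of these, 10 to 12 passed the filter in each of the 4 comparisons and limma called none. Without adjustment 0 to 2 of them had a p under 0.05 in a comparison. Between cKO and Ctrl, 11 of the 12 tested had a log2 difference above 0 in CL, and 6 of 11 in IL. The CL median was 0.18, against -0.07 for all genes. The list summed to 83.4 to 144 CPM in Ctrl CL, 88.9 to 139 in Ctrl IL, 103 to 136 in cKO CL and 102 to 116 in cKO IL. The CL mean of *Dlg4* was 2.18 ± 0.541 CPM in 4 Ctrl and 3.01 ± 0.558 CPM in 3 cKO libraries (SD). That of *Dlg5* was 0.879 ± 0.171 and 1.78 ± 0.813 CPM, and its log2 difference of 0.51 ± 0.22 did not pass (adjusted p = 0.466 by limma).

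The genes outside the interval whose log2 levels followed the member sum most closely over the 14 libraries were *2610005L07Rik* (Pearson r = 0.961), *Gm10557* (0.954), *6820431F20Rik* (0.953), *Med12l*, which encodes a Mediator subunit (0.947), and the histone gene *Hist4h4* (0.943). The lowest were *Rtcb*, an RNA ligase (-0.956), *Napepld*, an enzyme of N-acylethanolamine synthesis (-0.956), and *Eid1* (-0.945). These correlations are descriptions: the libraries share mice and fall into 4 groups, and the genes were the extremes of 18400 compared. *2610005L07Rik* had means of 35.2 ± 7.43 and 24.3 ± 4.49 CPM in CL and IL of Ctrl mice, and of 63.9 ± 4.68 and 38.7 ± 4.62 CPM in CL and IL of cKO mice (SD).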

How the data were processed

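The deposited table, which per its name holds raw counts, holds CPM: each of its 14 columns sums to 1000000. Per the labels and the study's methods the authors aligned reads to mm10 with STAR at its defaults and quantified them in Partek Flow 8.0; how the quantification treated reads with several matches is not given in the sources used here. The authors' other tables hold only their own comparisons and were not used. The members and lists were chosen with earlier results of these data known. Reads per library were taken from the spacing of low CPM values, and only 71.5% to 83.2% of values under 100 reads were whole within 0.03, so no count test was run. CPM were scaled by an unweighted trimmed mean, genes with 10 reads of a median library in as many libraries as the smaller group and 15 reads in all were kept, and log2(CPM + 1) was fitted with limma 3.58.1 (trend). Called means adjusted p at most 0.05 and fold change at least 1.2. Transcripts were compared with blastn 2.17.0 and MAFFT 7.526 on GENCODE vM21; 33802 genes matched a symbol. The named genes are the members, interval genes with a group mean of at least 10 CPM, the lists, and the 5 highest and 3 lowest correlations with the member sum; *Tpm3-rs7* was named beforehand too. Same-numbered libraries are taken as 1 mouse from their labels. Their deviations from group means correlated at 0.181 to 0.610 in 6 of 6 pairs, and those of different mice at -0.535 to 0.502 in 19 pairs. These ranges overlap, so the correlations do not settle the pairing. Libraries of a group are separate mice. The fits were tested on simulated data. Alternatives were other scalings, pseudocounts and filters, a fit of all libraries, the mouse as a block and leaving out each library. The level of the targeted gene is not reported here.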

Additional observations from a re-analysis of the deposited data

Results flagged for a closer look

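In the groups of 4 Ctrl libraries, 20 sets of values were checked for 1 library far from the others, and 7 had one. Chance gives about 1 in 20 for values that vary freely, which does not hold for 5 of the 7, where 1 library held 1 to 4 reads and the other 3 were at 0. Ctrl IL of mouse 3546, the shallowest library, stood apart for *Gm3248* at 4.08 CPM (49.8 estimated reads) and for the member sum at 4.48 CPM. It also held the only *Gm3411* value of its group, 0.178 CPM or 2.18 reads. The other cases were single libraries with few reads where the rest were at 0: *Gm3453* at 0.0284 CPM in Ctrl IL of mouse 3541, *Gm3696* at 0.17 CPM in Ctrl CL of mouse 3551, and *Gm3755* at 0.108 CPM in CL and 0.0855 CPM in IL of mouse 3545.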

How the results depend on the processing

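The log2 ratio of the member sum between cKO and Ctrl depended on which copies were summed. In IL it was 2.04 for the members, -0.0626 for all 118 genes of the interval, -0.20 for interval genes that are not members, -0.0505 for the family, and 4.95 for the members without *Gm3248*. In CL it was 2.51, 0.30, -0.13, 0.18 and 5.57 in that order. Between IL and CL it was -1.88 in Ctrl and -2.35 in cKO for the members, and -0.58 and -0.94 for all genes of the interval. The family sum and the sum without *Gm3248* were added after the data were seen, as was the tolerance of 0.1 read, at which 54.7% of member values were off the read step.

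Leaving out 1 library at a time, 1 to 4 members were called between genotypes in IL and 5 to 9 in CL, and 0 or 1 between hemispheres in Ctrl and 6 to 8 in cKO. With no filter on low values 0 members were called between hemispheres in Ctrl. With 10 reads required in every library no member could be tested between genotypes, and 4 of 4 were called between hemispheres in cKO. The IL minus CL difference of *Gm3248* in cKO, -0.38, ran from -0.73 to 0.19, the latter without CL of mouse 3592. With the mouse as a replicate block the count of called members stayed at 1 in Ctrl and was 7 in cKO, where *Gm8050* was lost. The cause of these changes was not tested, except that fewer copies or libraries enter. Smaller pseudocounts raised the log2 differences between genotypes, for *Gm6356* in CL from 3.95 to 7.18 with 0.1. Of 111 alternative values of sums and counts 4 changed sign, all given above for sums, and a further 21 moved. Of 386 alternative values of single members 1 changed sign, 15 lost and 1 gained a call between hemispheres, and 30 differences between genotypes moved by more than the spread between libraries. The lowest depth, 12.2 M reads, sets a floor of 0.246 CPM for 3 reads, so differences among members under that level were not detectable in that library.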

Other observations

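*Tpm3-rs7*, a copy of the tropomyosin gene *Tpm3* outside the interval, was at 277 ± 31.2 CPM in Ctrl CL and 290 ± 14.2 in Ctrl IL (SD, n = 4 each), and at 678 ± 5.23 in cKO CL and 720 ± 15.7 in cKO IL (SD, n = 3 each). Predicted genes with Gm names outside the interval were called between genotypes in 0.750% of 2134 tested in CL and 0.622% of 2252 tested in IL, near the 0.869% and 0.676% of all genes.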
